A study of Sus scrofa with 12 samples.

Results

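The genes of swine leukocyte antigen (SLA) class I and of its peptide loading were followed in loin muscle of Iberian pigs that differed in breeding value for myoglobin. They were taken by name from a list of 10 symbols, SLA-1, SLA-5, SLA-7, B2M, TAP1, TAP2, TAPBP, PSMB8, PSMB9 and NLRC5. Of these, 9 had a row in the gene table of 25880 Ensembl genes and all 9 passed the filter on low counts, which kept 13373 genes. B2M was not analysed here. In the files SLA-1 is ENSSSCG00000001229, SLA-5 ENSSSCG00000030767, SLA-7 ENSSSCG00000024161, TAP1 ENSSSCG00000025618, TAP2 ENSSSCG00000025593, TAPBP ENSSSCG00000001507, PSMB8 ENSSSCG00000026951, PSMB9 ENSSSCG00000001463 and NLRC5 ENSSSCG00000039751.

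Cells show peptides from their own proteins to cytotoxic T cells on major histocompatibility complex class I molecules, which in the pig are the SLA molecules. A class I molecule is a heavy chain, encoded by the polymorphic SLA class I genes, held with the light chain beta-2-microglobulin (B2M). Proteasomes cut proteins into peptides, the immunoproteasome being the form in which interferon-induced catalytic subunits such as PSMB8 and PSMB9 replace the constitutive ones. The transporter TAP1 and TAP2 then pumps the peptides into the endoplasmic reticulum, where tapasin (TAPBP) bridges the transporter and the empty heavy chain, and NLRC5 is a transactivator of the genes of this pathway. Skeletal muscle fibres are known for low class I expression at rest.

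RNA was sequenced from the Longissimus dorsi, the loin muscle, of 12 castrated male Iberian pigs of a closed commercial population that had been finished outdoors on acorns and grass. The High MB group held the 6 pigs with high breeding values for myoglobin content and the Low MB group the 6 with low ones, and no full siblings were among them. Measured myoglobin was 2.48 ± 0.0657 mg/g (SD, n = 6) in High MB and 1.39 ± 0.147 mg/g (SD, n = 6) in Low MB. The pigs differed in their whole genetic background and not in 1 allele, and a muscle piece holds vessels, fat and immune cells beside fibres, so that fewer cells of a type and less RNA per cell cannot be told apart.

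Counts assigned to genes were 38914271 to 91318334 per pig. The 5 libraries above 50000000 counts, High MB 4 and 6 and Low MB 1, 5 and 6, are called deep, and the 7 others, all at 40001432 or fewer, standard. The labels name no batch for this difference. Pigs of 1 group differed by a chi-square of 61.6 to 688 per degree of freedom over 30 pairs, so no library was a copy of another of its group. Muscle fibre markers summed to 43219 to 94831 CPM (counts scaled to the library total after TMM normalisation) in High MB and 71652 to 124172 in Low MB.

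The 3 heavy chains are near relatives, and the sequences below show how near, because a read that matches more than 1 of them is not counted. They come from RefSeq on Sscrofa11.1, the build of the count files. RefSeq placed SLA-1 at chr7:22824137-22920154 and SLA-5 at chr7:22851888-22854782, both on the plus strand, and SLA-7 at chr7:23634731-23638722 on the minus strand. The SLA-1 record overlaps that of SLA-5, and the RefSeq gene of a name need not be the locus of the Ensembl identifier of that name. The middle 60 bases of exon 2, which encodes the first domain of the peptide groove, are shown on the coding strand, for SLA-5 and SLA-7 as the bases aligned to exon 2 of SLA-1, with capitals where a base differs from SLA-1. They lie at chr7:22824939-22824998, chr7:22852376-22852435 and chr7:23637901-23637960.
SLA-1: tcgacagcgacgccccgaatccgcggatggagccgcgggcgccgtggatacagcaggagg
SLA-5: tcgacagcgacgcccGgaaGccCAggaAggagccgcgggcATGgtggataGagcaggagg
SLA-7: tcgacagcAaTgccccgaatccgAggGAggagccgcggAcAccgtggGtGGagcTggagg
In this stretch SLA-5 differed from SLA-1 at 9 bases and SLA-7 at 11. Exon 4 encodes the domain under the groove that CD8 binds, and its middle 60 bases lie at chr7:22826323-22826382 in SLA-1 and chr7:23636583-23636642 in SLA-7.
SLA-1: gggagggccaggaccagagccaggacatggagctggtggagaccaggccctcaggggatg
SLA-7: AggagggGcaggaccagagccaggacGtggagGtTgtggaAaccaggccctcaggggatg
Here SLA-7 differed at 6 bases, and SLA-5 is not shown because its alignment had a gap. Between SLA-1 and SLA-7 the identity was 81.1% over exon 2 and 93.8% over exon 4. Over the whole coding sequence SLA-5 was 89.4% and SLA-7 75.6% identical to SLA-1, as a share of the longer sequence of each pair. SLA-7 has 1206 coding bases and SLA-1 1086, so the 75.6% counts the extra length of SLA-7 as difference. Of all stretches of 150 bases, the length of a read, 4.78% of the SLA-1 transcript and 1.33% of the SLA-5 transcript also stood letter for letter in another RefSeq class I transcript, and 0% of SLA-7. Values of SLA-1 and SLA-5 are uncertain to the extent that reads from these stretches were not counted. The SLA-5 transcript lies on the genome in 19 coding pieces, split by alignment gaps, against 8 for SLA-1. Its 89.4% and 1.33% are approximate, because such gaps can leave out bases and break stretches of 150 bases. How reads of other alleles were placed was not tested.

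TAP2, PSMB8, TAP1 and PSMB9 are neighbours in the class II region, within 32424 bases at chr7:25045085-25077508. TAP1 (minus strand) and PSMB9 (plus strand) point away from each other, and 143 bases lie between their outermost RefSeq starts. This stretch, upstream of both genes, is shown on the plus strand.
Between TAP1 and PSMB9, chr7:25071990-25072132: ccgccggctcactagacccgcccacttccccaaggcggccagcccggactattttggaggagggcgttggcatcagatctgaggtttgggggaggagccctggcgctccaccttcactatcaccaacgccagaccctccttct
A search for the interferon response core AANNGAAA, for the STAT site TTCNNNGAA and for CCAAT, each counted apart and on both strands, had no match in these 143 bases. In the window of 250 bases before the RefSeq start, 3 of the 9 genes held AANNGAAA, beside 20.8% of 19556 protein-coding genes. These were SLA-5, SLA-7 and PSMB9, and for each 30 bases are printed in the gene's own direction, with the core or its reverse complement in capitals.
SLA-5, chr7:22851688-22851717, plus strand: gtccccagTTTCACTTcgccatctcccaac
SLA-7, chr7:23638757-23638786, minus strand: agaacagtAAAGGAAAaagggactgagccc
PSMB9, chr7:25071964-25071993, plus strand: ttatgggaAAGGGAAAACGAAAgcggccgc
The core began 192 bases before the start of SLA-5 and 56 before that of SLA-7. PSMB9 had 2 overlapping cores, the first beginning 161 bases before its start and inside the first exon of TAP1. The STAT site matched in 0 of the 9 windows, beside 6.12% of all, and CCAAT in 3 of 9 (SLA-5, SLA-7 and TAP1), beside 31.9%. These are matches of letters only. The RefSeq transcript of SLA-5 has 1053 bases on the genome, all coding, so its window ends where the coding sequence begins. Windows of different genes need not cover the same part of a promoter. A gene without a match may hold the letters outside its window, which was not searched. Of the genes outside this cluster, TAPBP lies at chr7:29663491-29673453 on the minus strand and NLRC5 at chr6:18933179-19036288 on the plus strand.

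All 3 heavy chains had higher levels in High MB than in Low MB, with log2 fold changes of 0.84 to 1.36, and the 6 other genes had log2 fold changes of 0.05 to 0.48. By edgeR's quasi-likelihood test, 4 of the 9 genes were higher in High MB at an unadjusted p under 0.05, namely SLA-1, SLA-5, SLA-7 and PSMB8, beside 5.33% of all genes tested. All 9 had a fold change above 0, beside 46.9% of all genes. The median on the log2 scale was 0.46 for the 9 and 0.29 for the 6 that are not heavy chains, beside -0.02 for all genes. After Benjamini-Hochberg adjustment edgeR called 0 of the 9, as it called 0% of all genes at an adjusted p under 0.10 and a log2 fold change over 0.58. DESeq2, the tool of the study, called SLA-1 and SLA-5 among its 27 genes higher in High MB, which is 0.187% of the 14417 to which it gave an adjusted p. The study listed the heavy chains as differentially expressed on these same samples, so their direction is not independent evidence.

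SLA-1, a classical heavy chain that presents peptides to T cells, was the best counted of these genes. The study calls this gene SLA-1 in its text and SLA-2 in its longer list of genes, so which of these loci the values belong to is uncertain. Its level was 196 (lowest), 272 (median) and 385 CPM (highest) in High MB and 122, 147 and 202 CPM in Low MB. Only High MB 2, at 196 CPM, lay below the highest Low MB pig, Low MB 5. The means were 280.2 ± 75.4 and 156 ± 30.8 CPM (SD, n = 6 each), a log2 fold change of 0.84 ± 0.18 (SE). The unadjusted edgeR p was 0.000354 (adjusted p = 0.563), the exact two-sided permutation p was 0.00433, and the adjusted p of DESeq2 was 0.0211.

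SLA-5, a class I gene beside the classical ones, was counted at a few percent of the SLA-1 counts. In High MB it ran from 4.42 over a median of 8.95 to 14.1 CPM, and in Low MB from 2.15 over 3.46 to 5.28 CPM. High MB 2 and High MB 4 lay among the Low MB pigs, and the 4 others were above them all. The log2 fold change was 1.26 ± 0.30 (SE), with an unadjusted edgeR p of 0.0009 (adjusted p = 0.563), an exact permutation p of 0.0152 and a DESeq2 adjusted p of 0.0366.

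SLA-7 is a non-classical class I gene, of low polymorphism. Its level was 1.66, 7.02 and 11.8 CPM (lowest, median and highest) in High MB and 1.08, 2.79 and 3.61 CPM in Low MB. Here 5 High MB pigs were above every Low MB pig, while High MB 4 was at 1.66 CPM, below 5 of the Low MB pigs. The log2 fold change was 1.36 ± 0.39 (SE), the unadjusted edgeR p 0.00381 (adjusted p = 0.563), the exact permutation p 0.0325 and the DESeq2 adjusted p 0.109, which misses the threshold.

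**Figure D1:**
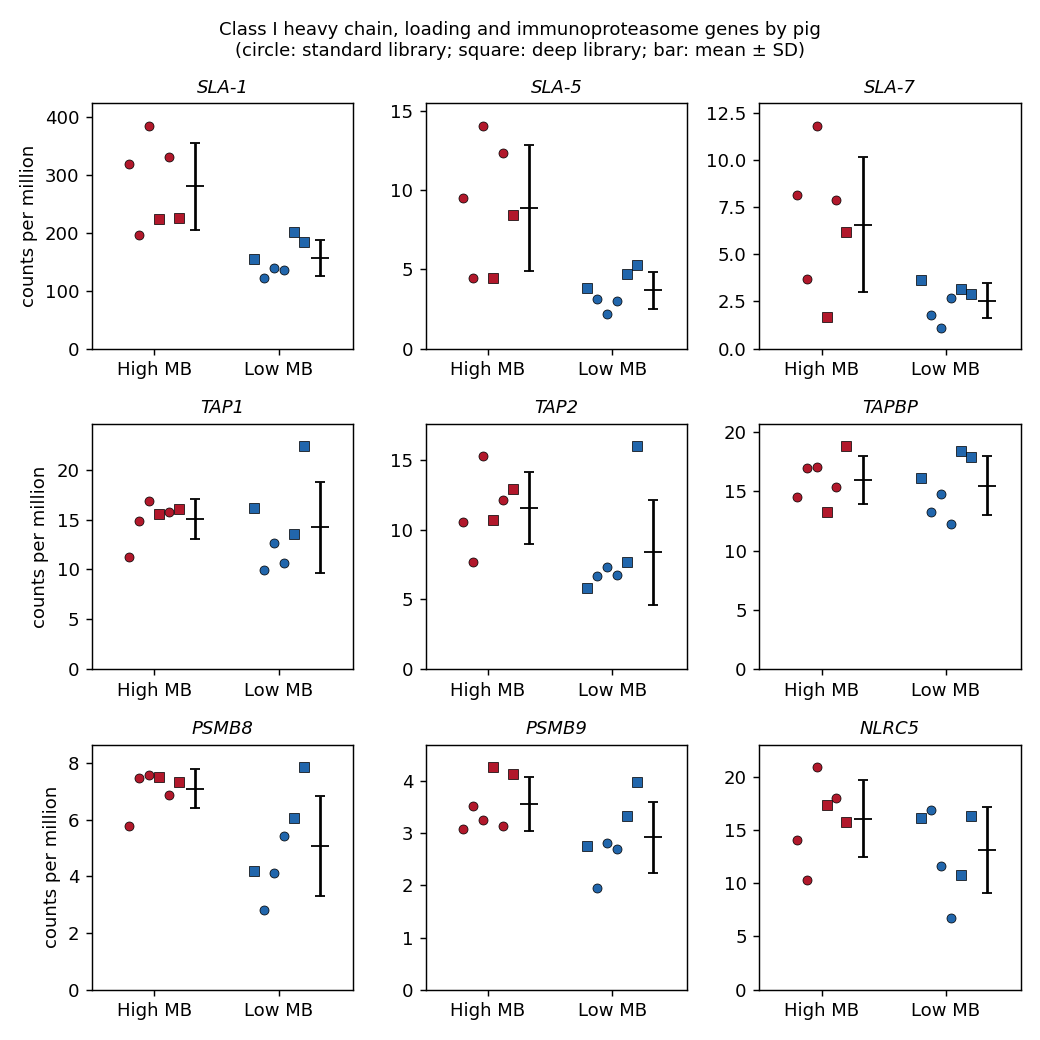
Level of each gene in each pig in CPM (vertical axis, from 0), High MB in red and Low MB in blue, circles for standard and squares for deep libraries, with the mean and SD of the 6 pigs beside them. The heavy chains in the top row stand apart between groups in most pigs, whereas TAP1 and TAPBP overlap, with Low MB 6 the highest pig for TAP1 (22.4 CPM), TAP2 (16.0 CPM) and PSMB8 (7.86 CPM).

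The transporter and its bridge differed less. TAP1 was at 11.2, 15.7 and 16.8 CPM (lowest, median, highest) in High MB and at 9.93, 13.1 and 22.4 CPM in Low MB, with a log2 fold change of 0.08 ± 0.18 (SE, exact p = 0.532, edgeR adjusted p = 0.927). TAPBP was at 13.2, 16.1 and 18.8 CPM in High MB and at 12.2, 15.5 and 18.4 CPM in Low MB, with a log2 fold change of 0.05 ± 0.13 (SE, exact p = 0.671, edgeR adjusted p = 0.94). In both genes the range of 1 group covered most of the other. With 1 pig left out the fold change of TAP1 ran from 0.01 (without Low MB 2) to 0.26 (without Low MB 6), and that of TAPBP from -0.01 (without High MB 6) to 0.10 (without Low MB 5), and 0 of these 12 fits passed 0.05 for either gene. TAP2, the partner of TAP1, was at 7.70, 11.4 and 15.3 CPM in High MB and at 5.82, 7.05 and 16.0 CPM in Low MB. In Low MB 5 pigs lay below every High MB pig, at 5.82 to 7.65 CPM, and Low MB 6 above them all. Its log2 fold change of 0.46 ± 0.24 (SE) had an unadjusted edgeR p of 0.0724 (adjusted p = 0.606) and an exact p of 0.0628. Without Low MB 6 it was 0.75, at an unadjusted edgeR p of 0.000501, and without High MB 2 it was 0.57, also under 0.05.

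PSMB8 and PSMB9 are catalytic subunits of the immunoproteasome. PSMB8 was at 5.76, 7.40 and 7.56 CPM in High MB and at 2.83, 4.82 and 7.86 CPM in Low MB. Of the High MB pigs 5 lay close together, at 6.87 to 7.56 CPM, with High MB 1 below them. Low MB 5, at 6.06 CPM, lay between High MB 1 and these 5, and Low MB 6 lay above every High MB pig. The log2 fold change of PSMB8 was 0.48 ± 0.20 (SE), with an unadjusted edgeR p of 0.0349 (adjusted p = 0.569) and an exact permutation p of 0.0325. This p passed 0.05 by little, and in 6 of the 12 fits that left out 1 pig it did not, the highest being 0.0695 without Low MB 1. PSMB9 was at 3.09, 3.40 and 4.28 CPM in High MB and at 1.95, 2.79 and 3.98 CPM in Low MB, a log2 fold change of 0.29 ± 0.18 (SE, exact p = 0.0866, edgeR adjusted p = 0.661). Without Low MB 6 it was 0.40, at an unadjusted edgeR p of 0.0453.

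NLRC5, the transactivator, was at 10.3, 16.5 and 20.9 CPM in High MB and at 6.72, 13.9 and 16.8 CPM in Low MB. Of the High MB pigs, 3 were above every Low MB pig, and High MB 2 was below 5 of them. The log2 fold change was 0.30 ± 0.22 (SE, exact p = 0.238, edgeR adjusted p = 0.718). With 1 pig left out it ran from 0.18 (without Low MB 4) to 0.42 (without High MB 2), and 0 of these 12 fits passed 0.05. The groups overlapped for each of the 9 genes, whereas 0.232% of all genes had every High MB pig over the whole Low MB group.

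Per length, on the scale of CPM per kilobase of RefSeq exon, the loading genes and NLRC5 lay between 2.21 and 5.84 in High MB. PSMB8 was highest, at 5.84 ± 0.571, followed by TAP1 at 5.25 ± 0.690, TAPBP at 4.45 ± 0.560, TAP2 at 3.58 ± 0.796, PSMB9 at 3.27 ± 0.473 and NLRC5 at 2.21 ± 0.502 (SD, n = 6). By the larger SD of a pair, PSMB8 and TAP1 lay within 1 SD of each other, as did TAP2 and PSMB9, and the other neighbours in this order were farther apart. In Low MB the means ran from 4.96 for TAP1, 4.31 for TAPBP and 4.19 for PSMB8 over 2.68 for PSMB9 and 2.59 for TAP2 to 1.80 for NLRC5. The heavy chains were left out of this order because their RefSeq and Ensembl models may differ.

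The difference of the heavy chains was not of the same size in deep and standard libraries. In the 7 standard libraries the log2 fold change was 1.23 for SLA-1, 1.87 for SLA-5 and 2.09 for SLA-7. In the 5 deep libraries it was 0.36, 0.54 and 0.33, with edgeR p of 0.0705, 0.133 and 0.528. SLA-1 was at 223 and 226 CPM in the deep High MB libraries and at 154 to 202 CPM in the deep Low MB ones. In the standard libraries it was at 196 to 385 CPM in High MB and at 122 to 139 CPM in Low MB. The test of the difference between the classes, an interaction term added after the data were seen, gave an unadjusted p of 0.0133 for SLA-1, 0.0279 for SLA-5 and 0.0278 for SLA-7 (edgeR, adjusted p = 1 each when rounded), beside 1.02% of all genes with a larger effect in standard libraries at p under 0.05. TAP1 and TAPBP changed sign, at -0.09 each in the deep libraries and 0.41 and 0.26 in the standard ones. What set the depth apart was not tested.

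**Figure D2:**
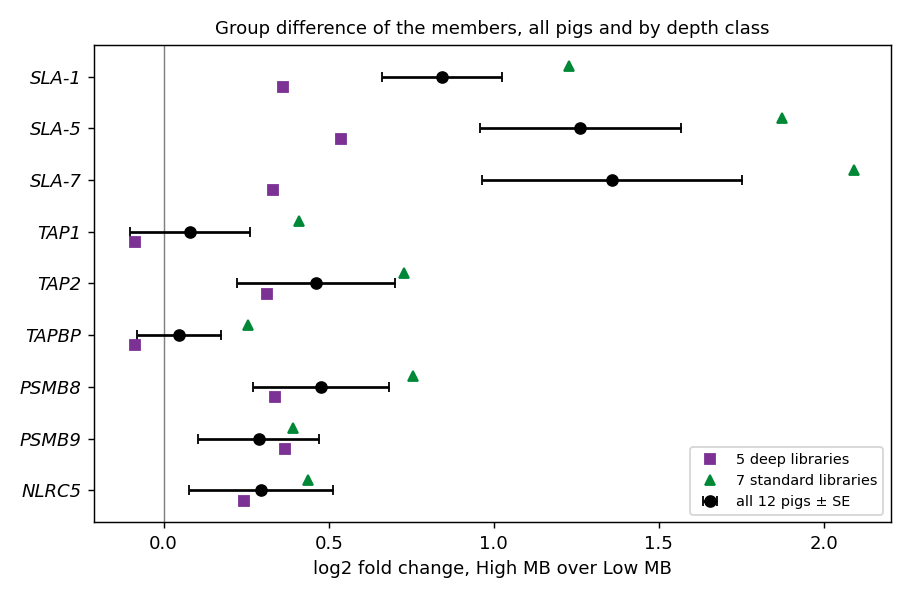
Log2 fold change of High MB over Low MB (horizontal axis) for each gene, with black circles and SE bars for all 12 pigs, purple squares for the 5 deep and green triangles for the 7 standard libraries. The heavy chains lie at 0.84 to 1.36 over all pigs and the other genes at 0.05 to 0.48, and the triangles lie right of the squares for each gene.

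Whether a gene differed between the groups by less or more than SLA-1 was tested on the ratio of the gene to SLA-1 within each pig. Both TAP1 and TAPBP fell behind SLA-1 in High MB, by 0.70 and 0.77 on the log2 scale, with exact permutation p of 0.013 and 0.00216, the latter the smallest that 6 against 6 pigs can give. The adjusted p over all genes was 0.0281 and 0.0152. The ratio of TAPBP to SLA-1 was lower in all High MB pigs than in any Low MB pig, as it was for 14.2% of all genes. Because SLA-1 itself was higher in High MB, 69% of all genes had a lower ratio at an exact p under 0.05, and 2 of the 8 other genes here is below that share.

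The remaining ratios did not pass that test. The log2 ratio to SLA-1 differed between High MB and Low MB by -0.52 for PSMB9 (exact p = 0.0779), -0.49 for NLRC5 (exact p = 0.0887), -0.30 for TAP2 (exact p = 0.197) and -0.28 for PSMB8 (exact p = 0.251). For SLA-5 and SLA-7 it differed by 0.36 (exact p = 0.102) and 0.40 (exact p = 0.327). A p above the threshold does not show that these genes kept pace with SLA-1. In the standard libraries alone TAP1 and TAPBP fell behind by 0.78 and 0.93 on the log2 scale, at an exact p of 0.0571 each, and TAP2 by 0.50 at 0.0286, the smallest that 4 against 3 pigs can give. In the deep libraries, where 2 against 3 pigs can give no exact p under 0.1, the log2 ratio differed by -0.43 for TAP1 and -0.48 for TAPBP, by 0.06 for TAP2 and by 0.01 for PSMB8 and for PSMB9. There that of SLA-7 differed by -0.33, against 0.40 over all pigs, that of SLA-5 by 0.10 and that of NLRC5 by -0.11. Without High MB 4 the count passing was 5 in place of 2, with PSMB9 added among the genes with a lower ratio in High MB, and SLA-5 and SLA-7, whose ratio was higher. The ratio of TAP1 to TAP2, which form 1 transporter, was lower in High MB by 0.40 on the log2 scale (exact permutation p = 0.0606), and that of PSMB8 to PSMB9 differed by 0.24 (exact p = 0.0671).

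By Pearson's r across the 12 pigs SLA-5 and SLA-7 followed SLA-1 most closely, TAP2 and PSMB8 came next, and TAP1 and TAPBP last. By rho NLRC5 lay between TAP1 and TAPBP, and on values centred on the group mean PSMB9 was last, with r = 0.13. On log2 CPM, 4 of the 8 other genes had a Pearson r above 0 with SLA-1 at an unadjusted permutation p under 0.05, beside 4.59% of all genes. None passed after adjustment over all genes, as 0% of genes did, by Pearson's r. The smallest p of 100000 permutations allows a single gene no adjusted p under 0.134. SLA-5 reached it with r = 0.94 (permutation p = 1e-05, the smallest they can give) and had rho = 0.92 (permutation p = 2e-05, adjusted p = 0.0669). SLA-7 had r = 0.83 (permutation p = 0.00084, adjusted p = 0.338) and rho = 0.78 (permutation p = 0.00421, adjusted p = 0.271).

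TAP2 had r = 0.72 (permutation p = 0.00923, adjusted p = 0.413) and rho = 0.72 (permutation p = 0.01, adjusted p = 0.293). PSMB8 had r = 0.67 (permutation p = 0.0162, adjusted p = 0.448) and rho = 0.61 (permutation p = 0.0395, adjusted p = 0.366). NLRC5 had r = 0.50 and rho = 0.46, PSMB9 r = 0.48 and rho = 0.54, TAP1 r = 0.36 and rho = 0.48, and TAPBP r = 0.33 and rho = 0.38, with permutation p of r of 0.0973, 0.116, 0.251 and 0.283 and of rho of 0.136, 0.0752, 0.121 and 0.226. These 8 relations were adjusted with those of all 13372 other genes, and the adjusted p of r for the last 4 genes was 0.549 to 0.725. The 2 pigs farthest from the SLA-1 median were High MB 3 and High MB 5. Without them r was 0.88 for SLA-5, 0.69 for SLA-7, 0.59 for TAP2 and 0.66 for PSMB8. The permutation p of TAP2 was then 0.0727, past 0.05, while without High MB 3 and Low MB 6, the pigs farthest from its own median, r was 0.83 (permutation p = 0.00438).

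Groups that differ in 2 genes make them correlate, so the relation was also taken within each group of 6. SLA-5 had r = 0.91 in High MB (exact p = 0.00694) and 0.78 in Low MB (exact p = 0.0708), SLA-7 had 0.78 and 0.56 (exact p = 0.0556 and 0.246), and TAP2 0.70 and 0.52 (exact p = 0.107 and 0.315). PSMB9 had r = -0.73 in High MB and 0.86 in Low MB (exact p = 0.128 and 0.025, rho = -0.60 and 0.89). PSMB8 had -0.36 and 0.80 (exact p = 0.586 and 0.0611, rho = -0.03 and 0.77). TAPBP had -0.08 in High MB and 0.91 in Low MB (exact p = 0.875 and 0.0181, rho = 0.20 and 0.94). For TAPBP, TAP1 and NLRC5 r and rho differed in sign in 1 group. TAP1 had r = -0.07 and 0.69 (exact p = 0.989 and 0.128) and rho = 0.54 and 0.83, and NLRC5 r = 0.69 and 0.06 (exact p = 0.108 and 0.922) and rho = 0.77 and -0.20. High MB 1 stood apart from its group for TAP1 and PSMB8, and these values were not taken without it. The difference between the 2 groups in r was not tested. Over the 7 standard libraries, which pool both groups and so hold the group difference, r was 0.97 for SLA-5, 0.96 for TAP2, 0.94 for SLA-7 and 0.60 to 0.75 for the others.

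**Figure D3:**
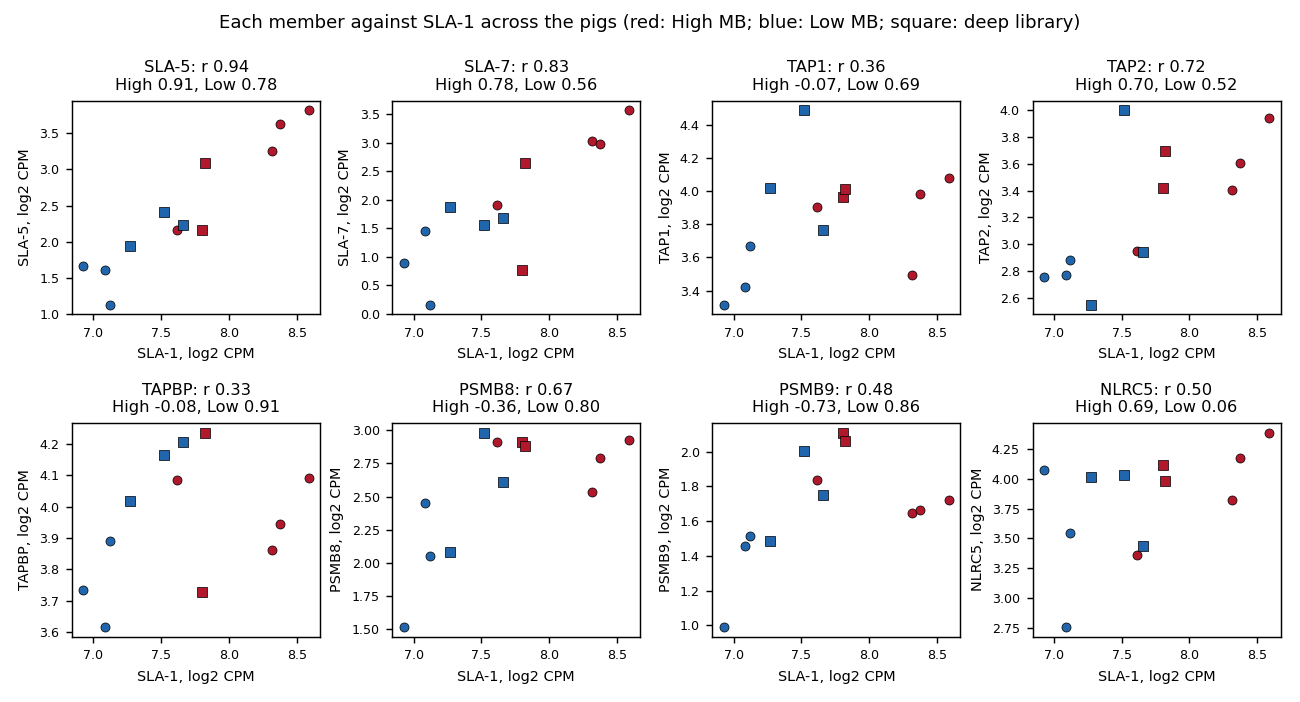
Log2 CPM of each gene (vertical axis) against that of SLA-1 (horizontal axis) in the 12 pigs, red for High MB and blue for Low MB, squares for deep libraries, with Pearson's r over all pigs and within each group above each panel. SLA-5 climbs with SLA-1 in both groups (r = 0.91 and 0.78), while PSMB9 climbs in Low MB (0.86) and has r = -0.73 in High MB.

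Among themselves the other genes had their highest Pearson r in 2 pairs. SLA-5 and SLA-7 had r = 0.93 (permutation p = 1e-05) and rho = 0.83 (permutation p = 0.00154), and without High MB 3 and High MB 5 r was 0.87. PSMB8 and PSMB9 had r = 0.90 (permutation p = 8e-05) and rho = 0.84 (permutation p = 0.00125), with r = 0.78 without Low MB 2 and Low MB 3. Adjusted over all genes, the p of r depended on the gene the others were set against. It was 0.0669 against SLA-5 and 0.401 against SLA-7 for the former pair, and 0.0629 against PSMB8 and 0.0814 against PSMB9 for the latter. Sampling of the permutations adds to these gaps, as the unadjusted p for the same r was 3e-05 against SLA-7 and 0.00013 against PSMB9. The divergent neighbours TAP1 and PSMB9 had r = 0.72 (permutation p = 0.0087, adjusted p = 0.427 against TAP1 and 0.237 against PSMB9) and rho = 0.57 (permutation p = 0.0591, adjusted p = 0.474 and 0.351), with r = 0.50 (permutation p = 0.135) without Low MB 2 and Low MB 6, the pigs farthest from the TAP1 median, 0.64 (permutation p = 0.0421) without High MB 4 and Low MB 2, the farthest from that of PSMB9, and 0.77 (exact p = 0.0179) in the standard libraries. TAP2 and PSMB8 had a higher rho than either of the first pairs, 0.87 (permutation p = 0.00037, adjusted p = 0.219 against TAP2 and 0.163 against PSMB8), and r = 0.73 (permutation p = 0.00514, adjusted p = 0.336 and 0.152). These values pool both groups. Centred on the group mean, r was 0.59 for TAP2 and PSMB8 (unadjusted permutation p = 0.112), with 0.10 in High MB and 0.72 in Low MB. Centred r was 0.88 for SLA-5 and SLA-7, 0.86 for PSMB8 and PSMB9 and 0.73 for TAP1 and PSMB9 (unadjusted permutation p = 0.00046, 0.00245 and 0.0219).

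**Figure D4:**
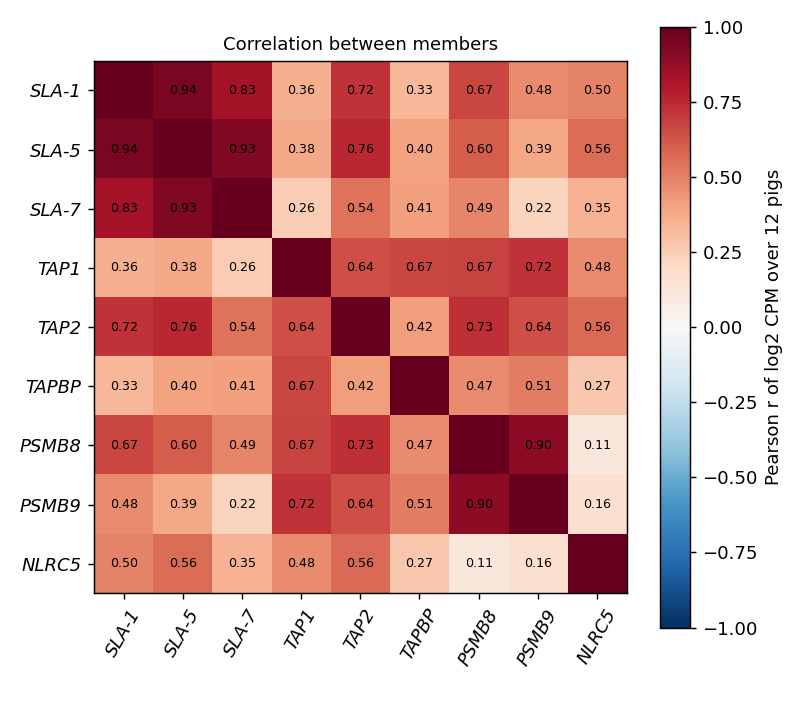
Pearson's r of log2 CPM over the 12 pigs for each pair of genes, written in each cell and coloured from blue (-1) to red (1). The heavy chains (0.83 to 0.94) and the pair PSMB8 and PSMB9 (0.90) stand out, and NLRC5 has 0.11 with PSMB8 and 0.16 with PSMB9.

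Of all genes with a symbol, the 6 with the highest r with SLA-1 over the 12 pigs were SLA-5, TNNI1 (r = 0.89), DISP1 (0.89), IFI44L (0.86), PSMB10 (0.86) and MYL2 (0.85), with adjusted permutation p of 0.134 to 0.316. Their rho was 0.92, 0.88, 0.87, 0.85, 0.91 and 0.86. TNNI1 and MYL2 encode slow-fibre troponin I and a slow-fibre myosin light chain, IFI44L is interferon-inducible, and PSMB10 is the third catalytic subunit of the immunoproteasome. By the mean of the 2 within-group r the first 6 were RYK, DENND1A, MYL2, ND4, SHROOM1 and SLA-5, at 0.89 to 0.84. Only SLA-5 and MYL2 were in both lists.

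The wider pathway was described from lists chosen with earlier results of these data known, each by its counts at an unadjusted edgeR p under 0.05, beside 5.33% of all genes higher and 3.13% lower in High MB. In the list of the immunoproteasome and its activator PA28, 2 of 5 genes were higher and 0 lower, with a median log2 fold change of 0.29. These were PSMB8 and PSMB10, the latter at 6.55 ± 0.950 CPM in High MB and 5.17 ± 0.766 CPM in Low MB (SD, n = 6 each), a log2 fold change of 0.34 ± 0.14 (SE, exact p = 0.0238, edgeR adjusted p = 0.566). The PA28 subunits PSME1 and PSME2 were at log2 fold changes of 0.15 (exact p = 0.331) and 0.11 (exact p = 0.372). In the constitutive proteasome core 0 of 11 passed in either direction, with a median of -0.08, and PSMB7, the subunit that PSMB10 replaces, was at -0.05 (exact p = 0.734). PSMB1 and PSMB4 had the smallest edgeR p there, at -0.17 (exact p = 0.338) and -0.13 (exact p = 0.478).

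Of 11 genes of the loading complex and its chaperones 0 passed in either direction, and their median was 0.05. TAP2 had the smallest edgeR p of that list. The lectin chaperones CALR and CANX were at 0.14 (exact p = 0.771) and 0.04 (exact p = 0.829), PDIA3, the disulfide isomerase held in the complex, at 0.20 (exact p = 0.532), TAPBPL, a tapasin relative, at 0.04 (exact p = 0.777), and ERAP1, which trims peptides in the endoplasmic reticulum, at -0.23 (exact p = 0.381). Cytosolic and related peptidases, which shorten or destroy peptides, went the other way, with 3 of 7 lower and 0 higher and a median of -0.18. Among these TPP2 was at 68.9 ± 7.33 CPM in High MB and 87.9 ± 16.7 CPM in Low MB (log2 fold change -0.35 ± 0.13 SE, exact p = 0.0238), LNPEP at -0.41 ± 0.16 (exact p = 0.0368) and NPEPPS at -0.23 (exact p = 0.013).

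Of 20 regulators of class I transcription 1 was higher and 2 were lower, with a median of -0.11. The one higher was IRF8, a factor of immune cells, at 0.78 ± 0.31 (SE, exact p = 0.0476). The lower ones were ATF1 at -0.27 (exact p = 0.0238) and NFYA, a subunit of the factor that binds CCAAT in class I promoters, at -0.31 (exact p = 0.0368). IRF1, IRF7 and the class II transactivator CIITA were at 0.20 (exact p = 0.333), -0.16 (exact p = 0.487) and 0.04 (exact p = 0.699). Of 14 interferon receptor and JAK-STAT genes 0 were higher and 1 lower, JAK1 at -0.27 (exact p = 0.0238), and USP18 was at 0.72 (exact p = 0.113). The median of this list was 0.15, and 12 of the 14 had a fold change above 0, beside 46.9% of all genes. Interferon-stimulated genes held the largest count, 12 of 35 higher and 0 lower, with a median of 0.44. IFI44L was at 6.95 ± 1.13 CPM in High MB and 3.70 ± 0.913 CPM in Low MB, with no overlap of the groups and a log2 fold change of 0.91 ± 0.18 (SE, exact p = 0.00216, edgeR adjusted p = 0.563). IFI6 was at 1.07 ± 0.30 (SE, exact p = 0.0173).

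Class II presentation had 2 of 6 higher and 0 lower, SLA-DMB, which edits class II peptides, at 0.66 (exact p = 0.0195) and CTSS, a lysosomal protease, at 0.71 (exact p = 0.0238). Of 4 class I-like molecules 1 was higher, PROCR, an endothelial receptor for protein C, at 0.86 (exact p = 0.026), and HFE, a regulator of iron uptake, was at 0.23 (exact p = 0.227).

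**Figure D5:**
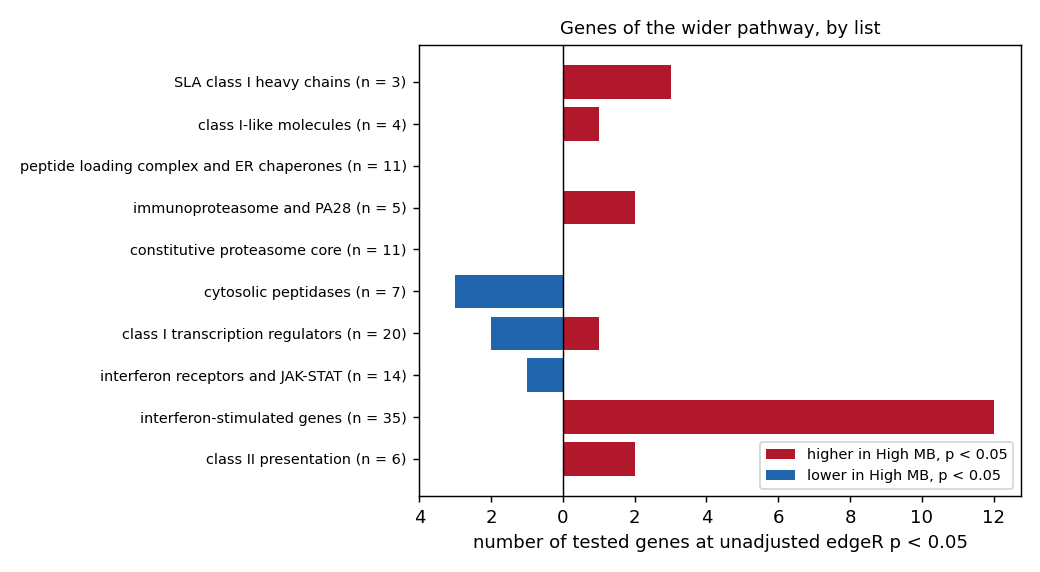
Number of genes in each list at an unadjusted edgeR p under 0.05, to the right (red) higher and to the left (blue) lower in High MB, with the number tested in brackets. Interferon-stimulated genes reach 12 of 35, the loading complex and the constitutive proteasome 0 of 11 each, and 3 of 7 peptidases are lower.

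Markers of several other cell types of the muscle also had higher levels in High MB, counted at the same unadjusted edgeR p, which 5.33% of all genes passed as higher. Of 11 macrophage markers 8 passed at p under 0.05 and 0 were lower, with a median log2 fold change of 0.93, and their levels summed to 180.5 to 285 CPM in High MB and 129 to 199 CPM in Low MB. Of 7 leukocyte markers 3 were higher, CD53, ITGB2 and LCP1 (list sum 42.4 to 111 CPM in High MB and 34.9 to 57.2 in Low MB). Of 8 T cell markers and of 2 B cell markers 0 were higher, of 2 cytotoxic cell markers 1 (NKG7) and of 3 dendritic cell markers 1 (CD209). Of 8 endothelial markers 2 were higher (TIE1 and ERG), of 6 fibroblast markers 3 (COL1A1, COL1A2 and PDGFRA), of 5 adipocyte markers 2 (FABP4 and CIDEC), of 2 erythroid markers 2 (HBB and ALAS2) and of 6 muscle fibre markers 1 (TNNT1), with 0 lower in any of these lists. Their part in the level of the heavy chains was not tested.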

How the data were processed

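Paired-end reads of 150 bases were trimmed with Trim Galore, mapped to Sscrofa11.1 with HISAT2 and counted with HTSeq, and the authors deposited whole-number counts per Ensembl gene, not normalized, 1 file per pig. Transcript counts of the same libraries were not used here. HTSeq's rows for reads with no gene and for ambiguous or multiply mapped reads were left out of totals and tests. Of the reads with 1 alignment of enough quality, 50.9% to 52.0% had no gene and 0.802% to 1.13% were ambiguous. Multiply mapped reads were 4.24% to 6.44% of each whole table. Whether counting used strand is not given in the sources used here. Symbols came from an Ensembl name table (14860 of 25880 identifiers) and, for the heavy chains, from the study.

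Groups followed the titles. High MB was compared with Low MB in edgeR 4.0.16 (R 4.3.3; TMM, filterByExpr, glmQLFit, glmQLFTest, no covariate), with Benjamini-Hochberg adjustment over 13373 genes. Single values used exact permutation of the 12 pigs, and relations used log2 CPM (TMM, prior count 2) with 100000 permutations. P-values measure the spread between pigs of 1 population. DESeq2 1.42.0, other scalings, filters, depth as covariate and pigs left out were alternatives. The fits and permutations were tested on simulated data.

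The genes and lists were chosen with earlier results of these data known. Beside the 9 genes, the text names a fixed set of pathway genes, of which 1 is not reported here, the 2 smallest p in each pathway list and the 6 genes most like SLA-1 by each measure. NPEPPS, NFYA, the markers named, CPM per kilobase and the sequence motifs were added after values were seen. Sequences and positions are RefSeq, Sscrofa11.1.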

Additional observations from a re-analysis of the deposited data

Results flagged for a closer look

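The group difference of the heavy chains differed between the depth classes. The log2 fold change was larger in standard than in deep libraries by 0.90 for SLA-1, 1.37 for SLA-5 and 1.79 for SLA-7 (edgeR interaction, unadjusted p = 0.0133, 0.0279 and 0.0278, adjusted p = 1 each when rounded).

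In 3 of 18 tests of 9 genes in 2 groups, a pig stood apart from the other 5 of its group. High MB 1 was lowest for TAP1 (11.2 CPM) and PSMB8 (5.76 CPM), and Low MB 6 was highest for TAP2 (16.0 CPM). Chance flags about 1 in 20 groups.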

How the results depend on the processing

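Over 23 alternatives each, the fold changes of SLA-1, SLA-5 and SLA-7 kept their direction and lost p under 0.05 only in the deep libraries alone. Those of TAP1 (-0.087) and TAPBP (-0.085) reversed there, and TAPBP also without High MB replicate 6 (-0.0061). PSMB8 missed p under 0.05 in 7 alternatives, TAP2 passed it in 5 and PSMB9 in 2 (depth class as covariate and without Low MB replicate 6). The cause of these changes was not tested.

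Genes called over the whole table were 0 by edgeR (713 higher and 419 lower at an unadjusted p under 0.05), 29 by DESeq2 and 1 in the deep libraries alone. Leaving out each pig gave 0 to 0. The count of the 9 genes higher in High MB was 4, was 0 in the deep libraries alone and 6 with depth class as covariate (TAP2 and PSMB9 added), and ran from 3 to 6 when each pig was left out (6 without Low MB replicate 6). The count over all genes moved too. At an unadjusted p under 0.05 it was 314 of 14465 higher in the deep libraries alone, 807 of 13373 with the covariate and 974 of 13455 without Low MB replicate 6. The count related to SLA-1 at an adjusted p under 0.10 was 0, was 1 by Spearman's rho and ran from 0 to 1 when each pig was left out (1, SLA-5, without High MB replicate 1 or Low MB replicate 2). At an unadjusted p it was 4, was 3 on values centred on the group mean (without PSMB8), was 1 in High MB alone (SLA-5) and 2 in Low MB alone (TAPBP and PSMB9, neither among the 4), and was 4 to 4 with each pig left out, with NLRC5 in place of PSMB8 without Low MB replicate 2. Without the 2 pigs farthest from the SLA-1 median it was 4, with PSMB9 in place of TAP2. The count of ratios to SLA-1 that passed was 2 and ran from 2 to 5 (5 without High MB replicate 4). In the standard libraries alone it was 1 (TAP2), and in the deep ones no count was made, because 2 against 3 pigs can give no exact p under 0.1.

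With upper-quartile scaling 82.0% of genes at p under 0.05 were higher in High MB, against 63.0% with TMM, and the 9 fold changes stayed above 0.

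The individual numbers did not pair the pigs: the deviations of same-numbered pigs correlated at -0.21 to 0.14, over 0.1 in 1 of 6 pairs, and 0 pigs correlated best with their own number. With the number as a replicate block, 0 genes were called and 3 ratios passed. In that fit 5 of the 9 genes were higher at an unadjusted edgeR p under 0.05, beside 670 of all 13373. SLA-7 had the lowest count of the 9 genes in a pig, with 42 to 574, and the largest SE of the fold change, 0.39.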
